A study of Rattus norvegicus with 20 samples.

Results

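Hprt, Oaz1, Polr2a, Eef1g, Nubp1, Abcf1, Hdac3 and Alas1 are 8 of the 20 housekeeping genes on a hybridisation panel of 770 genes that was used on rat brain after injury. They are named rows of the panel, taken from the housekeeping block that stands apart before the control probes, and they were chosen by their measured levels in these libraries and the differences of those levels between hemispheres. All 8 were measured in all 20 libraries. The animals were 10 female rats, and all of them had a controlled cortical impact, in which a piston contuses the exposed cortex to model brain trauma. Each gave 1 sample of the injured (ipsilateral) hemisphere and 1 of the opposite (contralateral) hemisphere of the same brain, so the contralateral samples are not from uninjured animals. The treatment was an intranasal dose of either vehicle or a human neural stem cell line carrying L-myc, and the labels do not say which animal had which. The sources used here do not give strain, age or time after injury.

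Reference genes are transcripts assumed to hold a steady share of a cell's RNA, and measurements of other genes are divided by them to remove differences in RNA input between samples. The 8 genes work in unrelated basic processes, among them purine salvage, polyamine control, transcription, translation, iron-sulfur cluster assembly, chromatin repression and heme synthesis. Injured brain loses neurons and gains microglia, macrophages and reactive glia, so a gene used as a reference there is measured over a changed mix of cells. In tissue lysates, fewer cells of a type and less RNA per cell cannot be told apart.

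Because any change of a shared scale cancels within a library, each gene was expressed as its count divided by the geometric mean count of the other 7 in the same library, called its relative level below. By construction the 8 hemisphere differences of an animal sum to 0 on the log2 scale, so a gene can only be high or low against the rest of the group. The genes and the contrast were chosen with the values known, so the hemisphere differences of the 8 are given without a test. Relative levels of different genes are not compared, since probe efficiency differs between genes.

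Depth varied widely. The geometric mean count of the 8 genes ran from 70.5 to 325 (median 237) in the ipsilateral libraries and from 99.5 to 1046 (median 242) in the contralateral libraries, a 14.8-fold span over all 20. The lowest was the ipsilateral library of animal 8, and the highest the contralateral library of animal 7. The 6 spiked-in positive controls were 1.46-fold higher in the ipsilateral libraries, which were counted in another run set than the contralateral ones, so run set and hemisphere cannot be told apart. The highest of the 8 negative controls reached 18 counts in any library, and the lowest count of any of the 8 reference genes was 13 (Nubp1, contralateral animal 10, where the highest negative control had 8). None of the accessions that the file gives for the 770 probes (0) occurs in the rat RefSeq table, and names such as G6pdx and H2-K1 follow mouse nomenclature. The match of the probes to rat transcripts was not tested.

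The 5′ regions of these genes are given as a description, without a test. RefSeq windows of 300 bases on the GRCr8 build, from 250 bases before to 50 bases after the transcript start, were found for 7 of the 8 genes (Hprt under the rat symbol Hprt1), and Abcf1 was not matched. They held 19 (Nubp1) to 31 (Oaz1) CpG dinucleotides, against a median of 7 in the 33465 windows of the table, of which 25.7% held at least 19, the lowest value of the 7. The GC box GGGCGG, read on both strands, was present in 5 of the 7 windows and in 33.1% of all windows. TATAAA on either strand was present in 2 (Oaz1 and Polr2a) and in 14.2% of all windows, and CCAAT on either strand in 2 (Oaz1 and Nubp1) and in 37.5%. The Alas1 window held none of these motifs, and that of Nubp1 no GC box. Oaz1, Hprt and Polr2a are printed because they had the largest hemisphere differences in either direction, in lower case with GGGCGG or its complement and TATAAA in capitals, 5′ to 3′ on the strand of the gene. They lie at chr7:9536941-9537240 on the minus strand (Oaz1), chrX:137655494-137655793 on the plus strand (Hprt) and chr10:54977130-54977429 on the minus strand (Polr2a).
Oaz1: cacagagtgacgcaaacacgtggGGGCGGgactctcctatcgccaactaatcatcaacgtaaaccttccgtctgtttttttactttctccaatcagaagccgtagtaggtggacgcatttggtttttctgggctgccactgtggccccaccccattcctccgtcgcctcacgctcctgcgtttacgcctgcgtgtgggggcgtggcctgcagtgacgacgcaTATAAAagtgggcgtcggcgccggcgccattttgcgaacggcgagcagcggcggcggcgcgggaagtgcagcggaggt
Hprt: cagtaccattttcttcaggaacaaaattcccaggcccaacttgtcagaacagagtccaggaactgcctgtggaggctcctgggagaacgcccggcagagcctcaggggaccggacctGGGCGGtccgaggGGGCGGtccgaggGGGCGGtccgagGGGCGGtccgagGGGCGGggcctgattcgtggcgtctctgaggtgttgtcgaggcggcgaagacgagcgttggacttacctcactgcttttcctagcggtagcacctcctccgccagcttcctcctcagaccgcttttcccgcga
Polr2a: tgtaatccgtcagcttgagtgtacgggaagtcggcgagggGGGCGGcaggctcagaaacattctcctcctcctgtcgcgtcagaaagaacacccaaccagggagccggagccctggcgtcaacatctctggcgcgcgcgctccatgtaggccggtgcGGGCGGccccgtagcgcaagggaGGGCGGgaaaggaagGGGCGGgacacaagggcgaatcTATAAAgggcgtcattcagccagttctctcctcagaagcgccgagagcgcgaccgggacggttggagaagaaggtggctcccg
The Hprt window holds 5 GC boxes in a run and no TATAAA. The Polr2a window holds 4 GC boxes and a TATAAA that begins 33 bases before the start, whereas Oaz1 has 1 GC box and a TATAAA that begins 28 bases before it. A motif match describes these letters and does not show that a factor binds there.

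Relative to the other 7, Hprt and Oaz1 stood lower on the injured side and Polr2a, Nubp1 and Eef1g stood higher. Abcf1, Hdac3 and Alas1 had means near 0. All 8 means lay below 0 on a scale made from the 202 tested genes outside the group (TMM) or from the positive controls. The positive controls were 1.46-fold higher ipsilaterally, where run set and hemisphere cannot be told apart. Against them the SDs between animals ran from 1.17 for Polr2a to 1.94 for Oaz1, and for each gene the SD exceeded the size of the mean. Relative to the other 7, the means ran from -0.47 on the log2 scale for Oaz1 to 0.36 for Polr2a. In 5 of the 8 genes at least 8 of 10 animals went the same way, 3 higher and 2 lower. Of the 202 other genes tested, 65.3% met the same rule when measured against the 8, and since this contrast was known when the genes were picked, nothing is read from the count. On the TMM scale the values were -0.75 for Oaz1, -0.68 for Hprt, -0.41 for Alas1, -0.34 for Hdac3, -0.29 for Abcf1, -0.16 for Eef1g, -0.062 for Nubp1 and -0.029 for Polr2a. Going to a scale shared by all 8 shrinks these values by a common factor and shifts them by a common amount. It leaves their order as it is by construction, and here it turned the direction of Polr2a, Nubp1, Eef1g, Abcf1 and Hdac3. The means above 0 also depended on how the other genes were summarised. With the median of the other 7 in place of their geometric mean, Polr2a had 0.23, Nubp1 0.18, Eef1g 0.12, Abcf1 -0.062 and Hdac3 -0.093. Against the housekeeping genes outside the group, Polr2a had 0.24, Nubp1 0.21, Eef1g 0.11, Abcf1 -0.020 and Hdac3 -0.067.

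**Figure D1:**
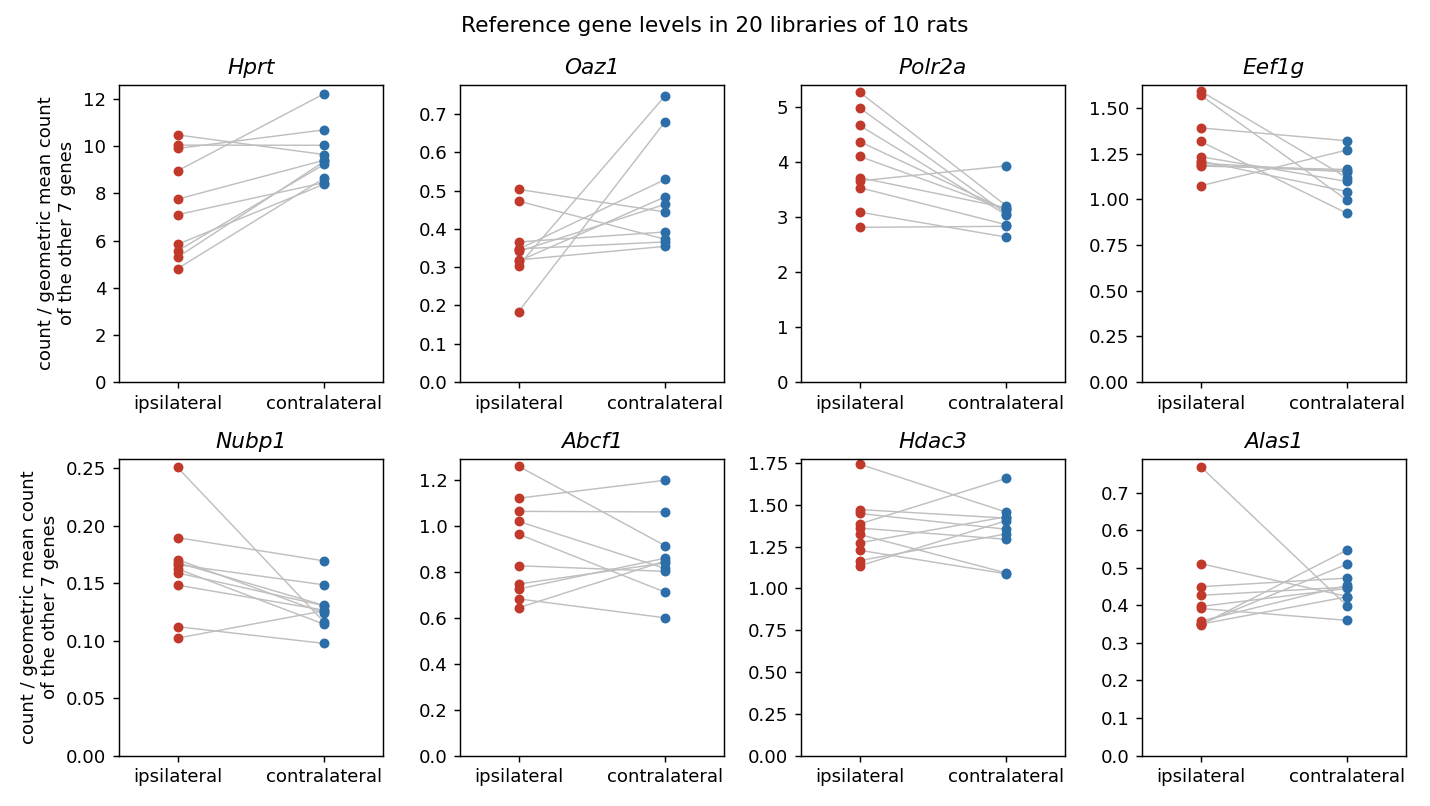
Relative level (count divided by the geometric mean count of the other 7 genes, linear axis from 0) of each gene in 10 ipsilateral (red) and 10 contralateral (blue) libraries, with a line joining the hemispheres of an animal. Hprt lay between 4.81 and 10.5 in the ipsilateral and between 8.40 and 12.2 in the contralateral libraries, and all 8 genes overlapped between the hemispheres.

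Hprt codes for the enzyme that salvages hypoxanthine and guanine into purine nucleotides, and was among the most counted genes of the group. Its relative level had a lowest value of 4.81, a median of 7.43 and a highest value of 10.5 in the ipsilateral libraries, against 8.40, 9.39 and 12.2 in the contralateral ones. Of the ipsilateral libraries, 6 lay below every contralateral library. The difference averaged -0.39 ± 0.34 on the log2 scale (SD, n = 10), a ratio of 0.763, and was below 0 in 8 of 10 animals, from -0.85 in animal 11 to 0.12 in animal 3. The largest differences came from animals 11, 7 and 12. Raw counts of 330 to 2408 ipsilaterally and 708 to 7405 contralaterally leave an SD from counting of only 0.09 on this difference, far under the spread between animals.

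Oaz1 codes for antizyme, which binds ornithine decarboxylase and thereby lowers polyamine synthesis. It had relative levels of 0.184 (lowest), 0.344 (median) and 0.504 (highest) ipsilaterally, against 0.355, 0.454 and 0.748 contralaterally. Of the ipsilateral libraries, 7 lay below every contralateral library. The mean difference was -0.47 ± 0.68 (SD, n = 10) on the log2 scale, with 8 of 10 animals below 0. Much of it came from 2 animals, at -1.89 in animal 8 and -1.30 in animal 7, while the median was -0.30 and animal 10 stood at 0.34. Without animal 8 the mean was -0.31. The contralateral libraries of animals 7 and 8 had the highest Oaz1 levels of all 20 (0.748 and 0.681), and they were among the 3 deepest contralateral libraries. The third of these, from animal 11, had 0.366. In the ipsilateral library of animal 8, which was the shallowest of its side, Oaz1 had 16 counts with a highest negative control of 5. The part of depth in these values was not tested.

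Polr2a codes for the largest subunit of RNA polymerase II, which transcribes messenger RNA. Its relative levels were 2.82, 3.91 and 5.28 (lowest, median and highest) ipsilaterally, against 2.64, 3.10 and 3.93 contralaterally, and 5 ipsilateral libraries lay above every contralateral one. The difference averaged 0.36 ± 0.28 (SD, n = 10) and was above 0 in 8 of 10 animals, with 0.72 in animal 8 and 0.70 in animal 7 at the top and -0.10 in animal 10 at the bottom. Against the whole-panel TMM scale it had both the smallest mean difference of the 8 and the smallest spread between animals, -0.029 ± 0.067 (SD, n = 10).

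Eef1g and Abcf1 act in translation, the first as a subunit of the elongation factor complex and the second as an ATP-binding protein that works with an initiation factor. Eef1g had relative levels of 1.07, 1.22 and 1.59 (lowest, median and highest) ipsilaterally and 0.923, 1.13 and 1.32 contralaterally. Its difference of 0.20 ± 0.28 (SD, n = 10) was above 0 in 9 of 10 animals, the exception being animal 8 at -0.24. Abcf1 had 0.645, 0.897 and 1.26 ipsilaterally and 0.601, 0.845 and 1.20 contralaterally, so its ranges nearly coincided. It averaged 0.06 ± 0.29 (SD, n = 10), with 6 animals above 0 and 4 below, and its mean was -0.02 when set against the housekeeping genes outside the group.

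Nubp1 codes for a cytosolic scaffold on which iron-sulfur clusters are assembled, and was the least counted of the 8. Its counts were 21 to 60 in the ipsilateral and 13 to 176 in the contralateral libraries. The relative level was 0.102, 0.164 and 0.251 (lowest, median and highest) ipsilaterally, against 0.098, 0.126 and 0.169 contralaterally. The difference of 0.32 ± 0.36 (SD, n = 10) was above 0 in 9 of 10 animals and reached 1.11 in animal 8. Counting alone gives a difference of this kind an SD of 0.34, close to the whole spread between animals, so animals cannot be ranked by Nubp1 at this depth.

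Hdac3 codes for a histone deacetylase of nuclear corepressor complexes. It had 1.14, 1.34 and 1.74 (lowest, median and highest) ipsilaterally and 1.09, 1.38 and 1.66 contralaterally. Its mean difference was 0.0013 ± 0.21 (SD, n = 10), with 6 animals above 0 and 4 below, and relative to the other 7 its spread between animals was the smallest of the 8. Against the housekeeping genes outside the group Polr2a had a smaller SD (0.21 against 0.23), as it did on the TMM scale (0.067 against 0.26). Alas1 codes for the first enzyme of heme synthesis and had 0.348, 0.394 and 0.769 ipsilaterally against 0.360, 0.447 and 0.547 contralaterally. Of its ipsilateral libraries, 4 lay below every contralateral library and 1, from animal 8, above. The difference averaged -0.08 ± 0.46 (SD, n = 10), with 7 animals below 0, from -0.65 in animal 11 to 0.95 in animal 8. Leaving out animal 8 moved the Alas1 mean to -0.19, so its place near 0 rests on that animal.

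**Figure D2:**
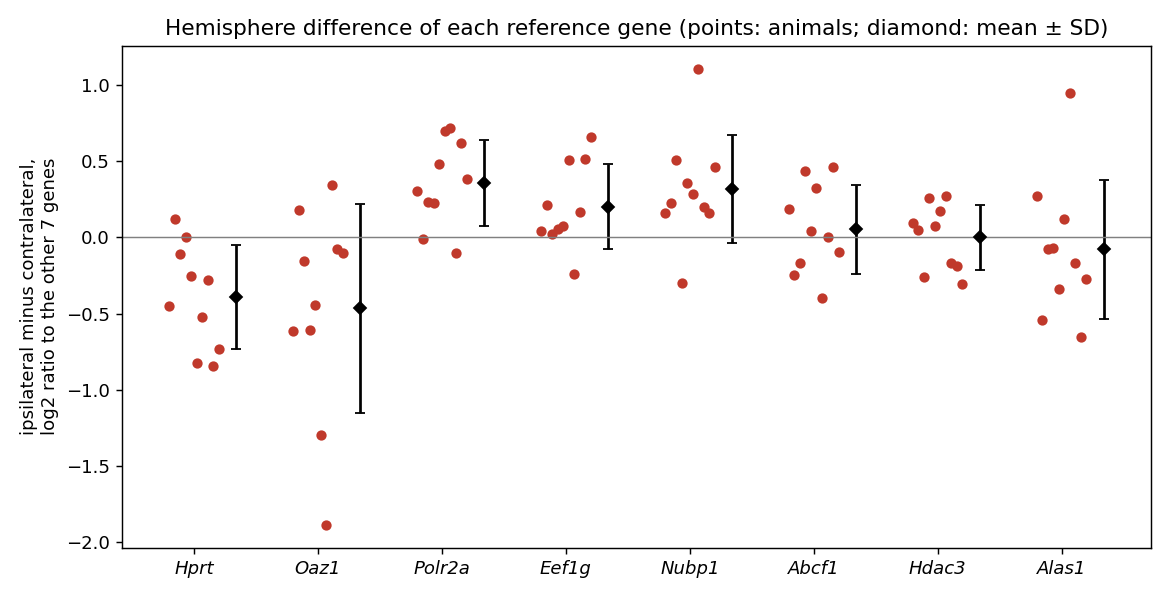
Ipsilateral minus contralateral log2 relative level of each gene, with 1 point per animal and the mean ± SD of 10 animals beside them. Oaz1 had the widest spread (-1.89 to 0.34) and Hdac3 the narrowest (-0.31 to 0.28), and the sign of Polr2a, Nubp1, Eef1g, Abcf1 and Hdac3 turns on the TMM scale.

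The animals differed in how far the 8 genes moved apart. Between the highest and the lowest of the 8 differences lay 0.62 on the log2 scale in animal 10 and 0.77 in animals 3 and 4. Animal 8 had the widest range, with Oaz1 at -1.89 and Nubp1 at 1.11, and it was the widest without Nubp1 too (2.84). Animal 7 had 2.00, animal 11 had 1.46 and animal 12 had 1.39, while animals 2, 5 and 6 lay between 0.92 and 1.05. The spread of Nubp1 between animals (SD 0.36) was close to that from counting alone (0.34), although its 1.11 in animal 8 exceeded the counting SD there (0.36). Without Nubp1, animal 4 had 0.49 and animal 3 had 0.76, and the other ranges up to 2.00 did not involve Nubp1. Oaz1 was the lowest of the 8 in animals 2, 5, 6, 7 and 8, and Hprt in animals 10, 11 and 12.

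Ratios between a pair of the genes need no scale at all, and 28 such pairs exist. Eef1g over Hprt was higher on the injured side in 10 of 10 animals, with a median ratio of 0.214 ipsilaterally and 0.147 contralaterally, a mean log2 difference of 0.52 ± 0.48 (SD, n = 10). Polr2a over Oaz1 had the largest mean difference of the 28, at 0.72 ± 0.80 (SD, n = 10) with 8 of 10 animals above 0. Polr2a over Hprt followed a similar course, with 0.586 as the ipsilateral and 0.383 as the contralateral median and 9 of 10 animals above 0 (0.65 ± 0.51, SD, n = 10). At the other end, Polr2a over Nubp1 differed by 0.03 ± 0.30 and Hprt over Oaz1 by 0.07 ± 0.57 (SD, n = 10 each). Among the genes that stood high, Polr2a over Eef1g differed by 0.13 ± 0.32 and Nubp1 over Eef1g by 0.10 ± 0.45 (SD, n = 10 each). The mean of a pair follows from the means of its members, and what the pair adds is the spread, which for Hprt over Oaz1 ran from -0.68 to 1.20 between animals.

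Steadiness among libraries of the same side was described by the SD of the log2 relative level. It was 0.42 for Hprt in the ipsilateral and 0.17 in the contralateral libraries, the widest gap of the 8. Alas1 (0.35 against 0.17), Nubp1 (0.36 against 0.21), Polr2a (0.29 against 0.15), Abcf1 (0.33 against 0.28), Eef1g (0.19 against 0.15) and Oaz1 (0.39 against 0.37) also had the larger SD ipsilaterally, and Hdac3 had 0.18 against 0.19 (n = 10 libraries on each side). Set against the housekeeping genes outside the group, the gap remained for Hprt (0.47 against 0.21), Alas1 (0.37 against 0.21), Polr2a (0.22 against 0.060) and Abcf1 (0.29 against 0.18), while Oaz1 (0.37 against 0.39) and Eef1g (0.17 against 0.20) had the smaller SD ipsilaterally, Hdac3 the larger (0.29 against 0.20), and Nubp1 had 0.27 on both sides. Over the 28 pairs of genes, the SD of the log2 ratio was larger among ipsilateral libraries in 24 and smaller in 4, with medians of 0.39 and 0.27. The pairs share genes and are not independent. Animal 8's ipsilateral library, the shallowest of its side, widens the ipsilateral SD of Alas1 and Oaz1. It was also the lowest or highest ipsilateral library for Polr2a, Eef1g, Nubp1 and Abcf1. Its log2 relative level of Alas1 was -0.38, with the next library at -0.97. For Oaz1 it was -2.44, with the next library at -1.72. The SDs without that library were not computed. The larger ipsilateral SDs of Oaz1, Alas1 and the other genes for which it was extreme may therefore rest on it. The same holds for the pairs that contain these genes. The ipsilateral spread of Hprt was 6.06 times what counting alone gives, and that of Polr2a 3.80 times. Contralateral Nubp1 (0.877 times) and Alas1 (1.20 times) lay near the counting level, so their contralateral spread cannot be told from counting error at this depth. With the negative controls subtracted the contralateral SD of Nubp1 was 0.35.

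**Figure D3:**
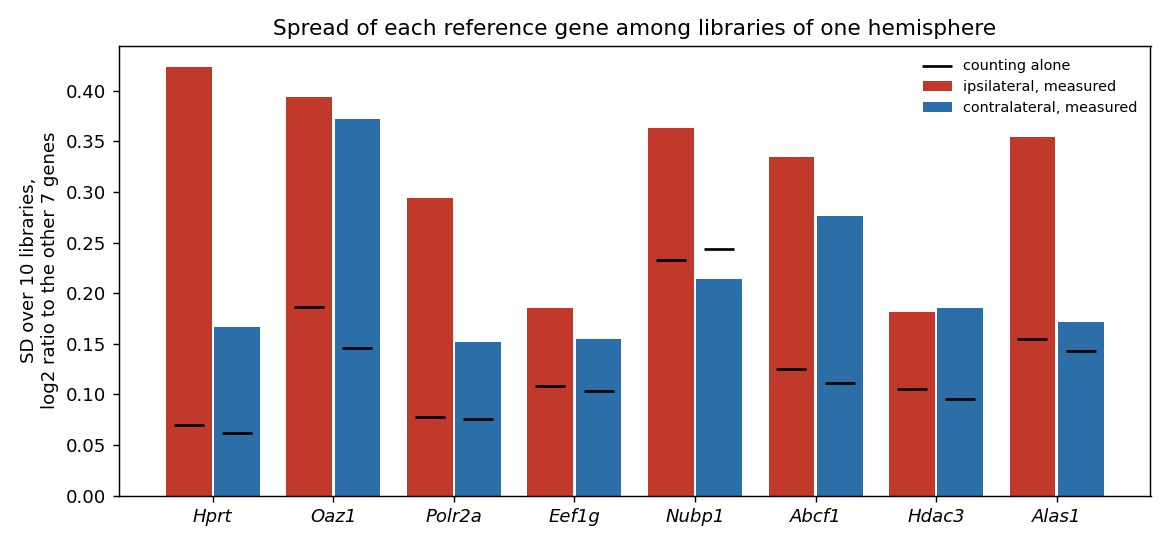
SD of the log2 relative level over 10 ipsilateral (red) and 10 contralateral (blue) libraries for each gene, with a black dash at the SD that counting alone gives. Hprt had 0.42 ipsilaterally and 0.17 contralaterally, a gap that remained against other housekeeping genes, and contralateral Nubp1 (0.21) lay under its counting level (0.24).

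Averaged over a gene's 7 pairs and all 20 libraries, the SD of the log2 ratio put the genes in the order Hdac3 (0.33), Eef1g (0.33), Polr2a (0.38), Alas1 (0.38), Abcf1 (0.40), Nubp1 (0.41), Hprt (0.44) and Oaz1 (0.50), the first being the steadiest. Among contralateral libraries alone Hprt (0.25) stood level with Polr2a (0.24), Eef1g (0.25), Alas1 (0.25) and Hdac3 (0.25), and Oaz1 (0.40) was the least steady. Among ipsilateral libraries alone Hprt (0.49) was the least steady, followed by Oaz1 (0.46), and Eef1g (0.34) and Hdac3 (0.35) were the steadiest. The order over 20 libraries also holds the differences between the hemispheres. These orders rest on the other members as partners. Against the housekeeping genes outside the group, Polr2a had a smaller SD than Hdac3 ipsilaterally (0.22 against 0.29) and contralaterally (0.060 against 0.20). The steadiest pair was Polr2a and Eef1g (SD 0.23 over 20 libraries) and the least steady Nubp1 and Oaz1 (0.60).

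The closest partner of each gene, meaning the probe among 209 with a mean count of at least 20 whose log2 ratio to it had the lowest SD over the 20 libraries, was another member in 0 of 8 cases. Members are only 7 of the 209 candidates, so nothing is read from that count. Hprt was closest to Ppia, the cyclophilin A gene of the same housekeeping block (SD 0.14), and Abcf1 to the splicing factor gene Sf3a3 (0.18). Polr2a was closest to the lipoprotein receptor gene Lrp1 (0.12), Eef1g to the cholesterol exporter gene Abcg1 (0.16) and Hdac3 to the hypoxia factor gene Hif1a (0.16). Nubp1 was closest to the tetraspanin gene Cd81 (0.22), Alas1 to the sphingomyelinase gene Smpd3 (0.22) and Oaz1 to the synaptic actin regulator gene Cyfip2 (0.27). The median SD over all partners ran from 0.39 for Polr2a to 0.65 for Oaz1. The best partner inside the group ranked 3rd for Alas1 and 5th for Nubp1, and 33rd for Polr2a.

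The other 12 housekeeping genes of the block were left out when the 8 were chosen with this contrast known. Their tests against the 8 are therefore not independent of that choice. Of the 12, 9 had a mean count of at least 20, while Edc3, Rpl19 and Tubb5 lay near the negative controls (means of 3.30, 8.40 and 10.4 counts). With the geometric mean of the 8 as the scale, 2 of the 9 differed between hemispheres (edgeR, adjusted p under 0.05), against 58.4% of all 202 tested genes. Gusb, the lysosomal beta-glucuronidase, rose. Its scaled counts were 17.5, 82.3 and 109 (lowest, median and highest) ipsilaterally and 21.6, 34.2 and 44.6 contralaterally, with 8 of 10 animals higher (log2 fold change 1.14 ± 0.24 SE, edgeR adjusted p = 0.00239). Ppia fell, with 2830, 3491 and 4480 scaled counts ipsilaterally and 3646, 4103 and 4876 contralaterally and 8 of 10 animals lower (log2 fold change -0.25 ± 0.09 SE, edgeR adjusted p = 0.0290). Its call was lost without any of animals 2, 7, 11 or 12 (edgeR adjusted p of 0.0613 to 0.0726). The other 7, Eif2b4, G6pdx, Polr1b, Sap130, Sdha, Sf3a3 and Tbp, had log2 fold changes between -0.14 and 0.09 and edgeR adjusted p of 0.188 or more, a result that does not show them to be equal between hemispheres. On the TMM scale 7 of the 9 were called, 1 higher (Gusb) and 6 lower (Ppia, G6pdx, Polr1b, Sap130, Sdha and Sf3a3). Of all 202 tested genes, 113 were called on that scale, 59 higher and 54 lower.

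**Figure D4:**
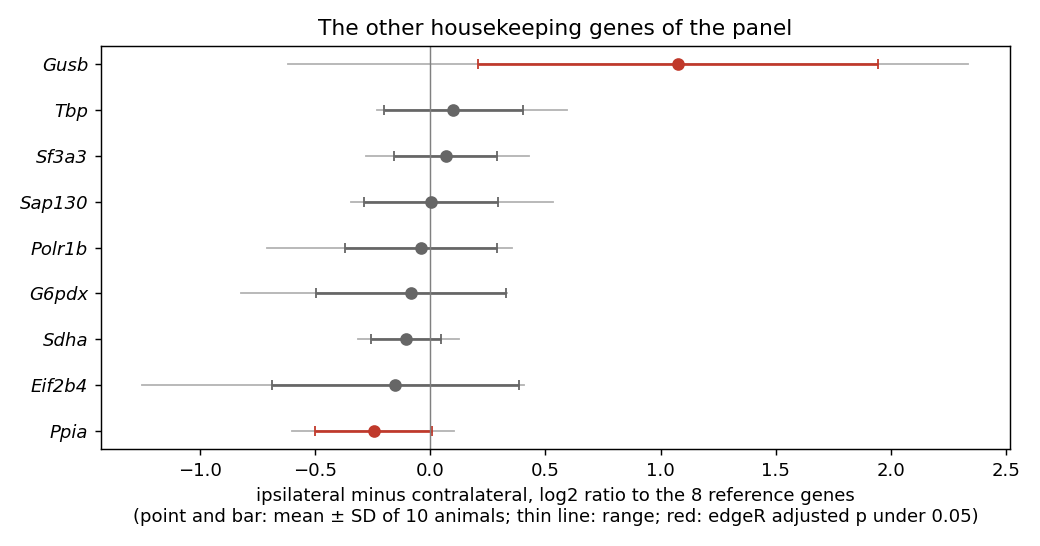
Ipsilateral minus contralateral log2 ratio to the geometric mean of the 8 reference genes for the 9 other housekeeping genes, as mean ± SD of 10 animals with the range as a thin line and genes with edgeR adjusted p under 0.05 in red. Gusb stood at 1.08 ± 0.87 and Ppia at -0.25 ± 0.25, and on the TMM scale Gusb is still called higher, with Ppia and 5 more genes lower. Of all 202 tested genes, the TMM scale called 59 higher and 54 lower.

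Each of the 8 genes was next used as the whole scale for the 202 tested genes, of which 193 are endogenous. With the geometric mean of all 8, 118 genes were called (58.4%), 100 higher (49.5%) and 18 lower (8.91%) on the injured side. Hprt alone called 152 genes (75.2%), 150 higher (74.3%) and 2 lower (0.99%), and Oaz1 alone 104 higher (51.5%) and 0 lower (0%). Alas1 and Hdac3 each called 101 genes (50%), Alas1 99 higher (49%) and 2 lower (0.99%) and Hdac3 92 higher (45.5%) and 9 lower (4.46%). Abcf1 called 91 genes (45%), 77 higher (38.1%) and 14 lower (6.93%). Eef1g called 87 genes (43.1%), 59 higher (29.2%) and 28 lower (13.9%), and Nubp1 called 85 (42.1%), 53 higher (26.2%) and 32 lower (15.8%). Polr2a called 112 genes (55.4%) with the most even split, 61 higher (30.2%) and 51 lower (25.2%), close to the 59 higher and 54 lower of the TMM scale. TMM sets its scale from these same 202 genes, whose median log2 fold change on it was -0.025. A nearly even split there is largely fixed by the method and is no benchmark for Polr2a. The 0 lower of Oaz1 is from edgeR at adjusted p under 0.05, and 126 genes had an unadjusted p under 0.05 on that scale. The median log2 fold change of the 202 genes was 0.71 on Oaz1, 0.67 on Hprt, 0.33 on Hdac3, 0.33 on all 8, 0.05 on Nubp1 and 0.0038 on Polr2a.

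**Figure D5:**
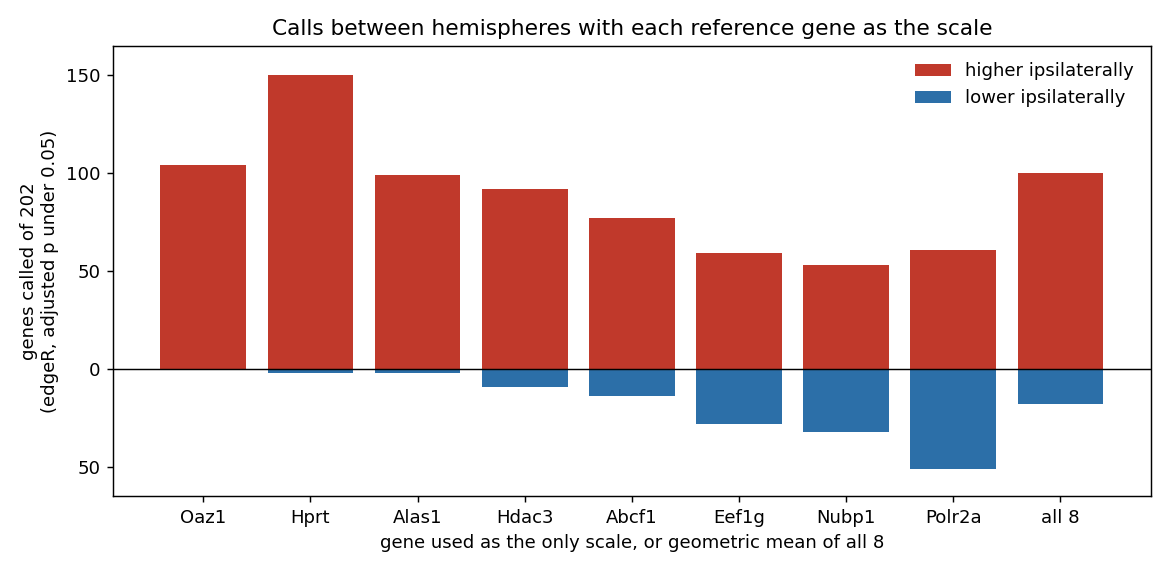
Number of the 202 tested genes called higher (red, up) or lower (blue, down) on the injured side by edgeR at adjusted p under 0.05, with each reference gene as the only scale and with the geometric mean of all 8. The number called lower runs from 0 on Oaz1 to 51 on Polr2a.

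Swapping one gene of the scale for another moves all 202 genes by about the same amount, the hemisphere difference of that pair. The balance of higher and lower calls thus restates the differences on which the 8 genes were chosen and adds no evidence for them. The number called also depends on the scatter that the scale gene brings in. The biological coefficient of variation, edgeR's estimate of scatter beyond counting, was 0.43 on Oaz1, 0.33 on Hprt and 0.23 on Polr2a. Oaz1 called fewer genes than Hprt with a similar median log2 fold change. The 53 genes called higher on Nubp1 were called higher on all 8 single scales, and since Oaz1 called 0 lower, 0 could be lower on all 8. On none of the 8 were 14 of the 202 called. Another 13 genes were called higher on at least 1 scale and lower on another, and these lie where the swap crosses 0. The 5 most counted of them were App, the gene of the amyloid precursor, Ncam1, a neural adhesion molecule, the proteasome subunits Psmb7 and Psma2, and Hif1a. App had a log2 fold change of 0.29 on Hprt and of -0.36 on Polr2a, and Hif1a had 0.33 on Hprt and -0.32 on Polr2a, both about the 0.65 by which Polr2a over Hprt differed. On all 8 App had -0.05 (edgeR adjusted p = 0.576) and Hif1a -0.0075 (edgeR adjusted p = 0.927). Removing a single gene from the 8 changed little by comparison, with 114 to 125 genes called. Without Oaz1 23 were lower and without Hprt 24, and without Nubp1 the number lower was 11.

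Markers of other cells moved between the hemispheres in the same libraries. Of 11 phagocyte and leukocyte markers 10 were on the panel and 7 had enough counts to test. All 7 rose on the scale of the 8 genes and on the TMM scale alike, against 49.5% of tested genes on the first. On the TMM scale 59 of the 202 tested genes were called higher and 54 lower. Lgals3 had a log2 fold change of 3.65 ± 0.49 (SE) and Cd68 one of 2.71 ± 0.38 (edgeR adjusted p = 0.00096 each). Their summed scaled count over the 10 ran from 769 to 3372 (median 2377) ipsilaterally and from 693 to 978 (median 869) contralaterally, while Itgam, Csf1r and Cx3cr1 had mean counts of 2.10, 5.20 and 3.45, near the negative controls. On the scale of the 8 genes all 4 tested endothelial markers rose as well, but on the TMM scale only Cdh5 and Tie1 were called, and Tek had a log2 fold change of 0.064 there against 0.41. The 5 on the panel had summed scaled counts of 207 to 571 ipsilaterally and 200 to 376 contralaterally. Of 7 neuronal markers only Nefl, the neurofilament light chain, was on the panel, and it fell (log2 fold change -0.27 ± 0.11 SE, edgeR adjusted p = 0.0475). Of 5 astrocyte markers only S100b was on the panel and it lay at background (2.40 counts), and of 5 oligodendrocyte markers 0 were, so the cell makeup is only partly visible. The part of these cells in the hemisphere differences of the 8 genes was not tested. Of 36 genes from the pathways of the 8, 4 were on the panel. Abca1 (1.24 ± 0.23 SE), Abcb1a (0.63 ± 0.18 SE) and Abcg1 (0.26 ± 0.09 SE), transporters of the wider ABC family to which Abcf1 belongs, rose on the scale of the 8 genes (edgeR adjusted p of 0.0014 to 0.0206), where 49.5% of tested genes did. On the TMM scale only Abca1 was called (log2 fold change 0.89), Abcb1a had 0.28 and Abcg1 turned to -0.078. Abcb1a is also one of the endothelial markers, and Ada was too low to test.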

How the data were processed

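Per the labels' protocols, RNA from frozen brain was counted digitally, with no amplification step, on the nCounter platform, and the series' design text names nSolver, with no version, as the authors' software. The deposited table is named as normalized, but its values are whole-number counts with unequal positive controls and unsubtracted negative controls, so they were treated as raw counts. The housekeeping rows are not marked in the file and were recognised as the separate alphabetical block. A second deposited table held these counts again. There, each of the 20 columns carried the number of a different animal from the same side, with all 10 pairs intact. Animal numbers follow the first table.

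Relative levels used log2 counts with no pseudocount. A scaled count is the count divided by the library's geometric mean of the 8 genes, times the mean of that value over libraries. The SD from counting assumes Poisson counts. Genes outside the group with a mean count of at least 20 (193 endogenous and 9 housekeeping) were tested with edgeR 4.0.16 in R 4.3.3 (glmQLFit, glmQLFTest, two-sided, animal as a block, Benjamini-Hochberg over 202 genes, called at adjusted p under 0.05). The SE is the log2 fold change over the square root of F. The script was tested on simulated counts. The TMM scale is the library's total panel count times a factor computed on the 202 tested genes, which leave out the 8. DESeq2 1.42.0 was an alternative.

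The block comes from the titles, which give both samples of an animal its number. Residuals of the hemispheres of an animal correlated from -0.22 to 0.50, above 0.1 in 5 of 10 animals. No pair of libraries of a side agreed within sampling noise (chi-square per degree of freedom at least 2.12). With the block, p-values rest on the spread of the hemisphere difference between these animals.

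The genes, lists and tests were chosen with earlier results of these data known. Named are the 8 genes, the other 12 housekeeping genes, each gene's closest partner, the 5 most counted of the genes called in opposite directions on different scales, and genes of the marker and pathway lists. Promoter windows are RefSeq's for GRCr8. Figures were drawn with matplotlib 3.10.9.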

Additional observations from a re-analysis of the deposited data

Results flagged for a closer look

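In every group of 10, the highest and the lowest value were compared with the value next to them, for the log2 relative level of the 8 genes and the 9 other housekeeping genes in each hemisphere, for the geometric mean of the 8 in each hemisphere, and for the 8 hemisphere differences. Chance alone marks about 1 in 20 groups, or 2.2 of these 44, and 5 were marked.

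Animal 8's ipsilateral library accounts for 3 of them. Its log2 geometric mean count of the 8 genes was 6.14 against a group median of 7.89, with the gap to the next library 0.57 of the group's range. Oaz1 was lowest there, with a log2 relative level of -2.44 against a median of -1.54 (gap 0.50), and Alas1 was highest there, at -0.38 against a median of -1.34 (gap 0.52). Ipsilateral Gusb was lowest in animal 5, with a log2 ratio to the 8 genes of -4.08 against a median of -1.86 (gap 0.50). Polr2a was highest among contralateral libraries in animal 10, the shallowest of that side, with a log2 relative level of 1.98 against a median of 1.63 (gap 0.51).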

How the results depend on the processing

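Of 128 recomputed hemisphere differences of the 8 genes, 115 lay within 1 SD of the value reported. The 13 others came from TMM or the positive controls. The 128 include the means that left out 1 animal, and most of the 115 are of this kind. Leaving out 1 animal cannot move a mean by 1 SD between animals, whatever the values. Nothing is therefore read from the count of 115. Within 1 SD, some values still moved by over 1.5 times or changed sign with the median of the other 7 (Polr2a 0.23, Nubp1 0.18, Eef1g 0.12, Abcf1 -0.062, Hdac3 -0.093, Alas1 -0.16) or the housekeeping genes outside the group (Nubp1 0.21, Eef1g 0.11, Abcf1 -0.020, Hdac3 -0.067, Alas1 -0.14). Against the positive controls the values were -1.29 for Hprt, -1.36 for Oaz1, -0.64 for Polr2a, -0.77 for Eef1g, -0.67 for Nubp1, -0.90 for Abcf1, -0.95 for Hdac3 and -1.02 for Alas1. Their SDs between animals ran from 1.17 (Polr2a) to 1.94 (Oaz1). On the TMM scale Polr2a had -0.029, Eef1g -0.16, Nubp1 -0.062, Abcf1 -0.29 and Hdac3 -0.34. Leaving out 1 animal gave -0.45 to -0.34 for Hprt, -0.56 to -0.31 for Oaz1, 0.32 to 0.41 for Polr2a, 0.15 to 0.25 for Eef1g, 0.23 to 0.39 for Nubp1, 0.0097 to 0.11 for Abcf1, -0.03 to 0.04 for Hdac3 and -0.19 to -0.01 for Alas1. With the negative controls subtracted the contralateral SD of Nubp1 became 0.35, against 0.21.

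The 118 calls became 91 to 134 without 1 animal, with 82 to 112 higher and 9 to 22 lower, and the number lower was under 12 without animal 6, 7, 11 or 12. With TMM 59 were higher and 54 lower, and with DESeq2's size factors 58 and 54, so that the share of higher calls was 52.2% and 51.8%, against 84.7%. Both of these scales are set from the tested genes themselves, so a nearly even split is largely fixed by the method. Without Nubp1 in the scale 11 were lower, and with no filter on low counts (762 genes) 8 were. With no replicate block 118 were called, 105 higher and 13 lower, and Gusb and Ppia kept their calls. DESeq2 with the same factors called 114, 97 higher and 17 lower. Among the other 9 housekeeping genes, 2 calls became 1 to 2 without 1 animal and 7 with TMM. Sap130 (-0.33), Sf3a3 (-0.27) and Tbp (-0.25) changed sign on the TMM scale. Leaving out 1 animal also turned the sign of 3 uncalled genes near 0, of which G6pdx ranged from -0.11 to 0.018, Polr1b from -0.077 to 0.046 and Sap130 from -0.050 to 0.047. The cause was not tested.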
